A study of Saccharomyces cerevisiae with 12 samples.

Results

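The 34 genes described here carry out excision, mismatch and post-replication repair of DNA in budding yeast. They were listed by gene name for their known roles, with earlier results of these data already known, and every name was found in the deposited raw table, 34 of its 6473 gene names. Of the 34, 32 were bright enough to be tested and 27 were detected on all 12 arrays. The study asked how tangeretin, a methoxylated flavone of citrus peel, alters gene expression in wild-type (WT) cells and in sgs1Δ cells, which lack the RecQ helicase Sgs1. Total RNA was hybridised to 12 one-colour (Cy5) Phalanx OneArray oligonucleotide arrays in 4 groups of 3. The groups were sgs1Δ with 30 µM tangeretin, sgs1Δ control, WT with 30 µM tangeretin and WT control. The labels give both strains as MATα with the alleles his3Δ1, leu2Δ0, met15Δ0 and ura3Δ0. Both also carry trp1∆::HPH and the plasmid pRS414-GAL1-HO-TRP1, in which the GAL1 promoter drives the HO endonuclease, and sgs1Δ has in addition sgs1∆::kanMX4. All 4 groups were kept for 4 h at 30 °C in tryptophan dropout medium with 0.2% DMSO, the solvent of tangeretin, in the controls too. Each genotype was represented by 1 strain. Separate cultures for the 3 arrays of each group are not stated in the labels, and the file headers number those arrays as the same sample, so the p-values below may measure technical spread only.

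Nucleotide excision repair finds bulky lesions, opens the helix and cuts out an oligonucleotide around the damage, while base excision repair removes single altered bases with glycosylases and then repairs the abasic site. Mismatch repair corrects replication errors through MutS-like recognition and MutL-like processing complexes. Post-replication repair lets forks pass unrepaired lesions: Rad6 and Rad18 attach ubiquitin to the sliding clamp PCNA, which recruits translesion polymerases, and Mms2, Ubc13 and Rad5 extend that ubiquitin to a chain that opens an error-free route.

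The median raw intensity of an array was 1367.5 to 1530 in sgs1Δ with tangeretin, 928 to 1344 in sgs1Δ control, 780 to 956 in WT with tangeretin and 530 to 814 in WT control, so brightness moved with both strain and compound. The values below are log2 of quantile-normalised intensity, which removes that overall shift. The SGS1 probe averaged a raw intensity of 5.33 in both sgs1Δ groups, detected on no array, against 163 in WT with tangeretin and 114 in WT control. Although the labels give both strains as MATα, 4 of 4 markers of α cells were higher in sgs1Δ in both media. Their summed raw intensities were 51861 to 52256 in sgs1Δ with tangeretin, 26344 to 33190 in sgs1Δ control, 3103 to 3452 in WT with tangeretin and 2568 to 3226 in WT control. Of 6 markers of a cells, 5 were higher in sgs1Δ with tangeretin and 4 in control medium, with sums of 23366 to 24767, 12328 to 16921, 7196 to 7957 and 6066 to 7297 in the same order of groups. All of these markers were detected on every array. The a-cell sums lay above the α-cell sums in both WT groups and below them in both sgs1Δ groups, though the lists differ in genes and probes. Which strain departs from its label was not tested. In bulk RNA, a different mix of cells and a different level per cell cannot be told apart. The part of brightness and of mating type in the strain differences below was not tested, beyond the fits with brightness as a covariate that are given where they apply.

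The deletion strain differed from WT at many of the repair genes, and tangeretin changed few. Calls were made where the adjusted p was below 0.05 (limma, Benjamini-Hochberg over all 6204 genes tested). In sgs1Δ against WT with tangeretin, 14 of 32 repair genes were called (43.8%, against 45.7% of all genes), of which 8 were higher and 6 lower, where 20.7% and 25% of all genes were. In control medium, 15 were called (46.9%, against 48.3% of all genes), 9 higher and 6 lower, where 21.5% and 26.8% of all genes were. Tangeretin changed 1 repair gene in sgs1Δ (3.12%, against 1.45% of all genes, 0.758% higher and 0.693% lower) and 2 in WT (6.25%, against 3.71% of all genes, 2.19% higher and 1.52% lower), and all 3 calls were falls. These shares lay near those of all genes and say nothing particular of repair. The median repair gene differed between sgs1Δ and WT by 0.14 (log2) with tangeretin and 0.08 in control medium, against -0.04 and -0.02 over all genes.

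**Figure D1:**
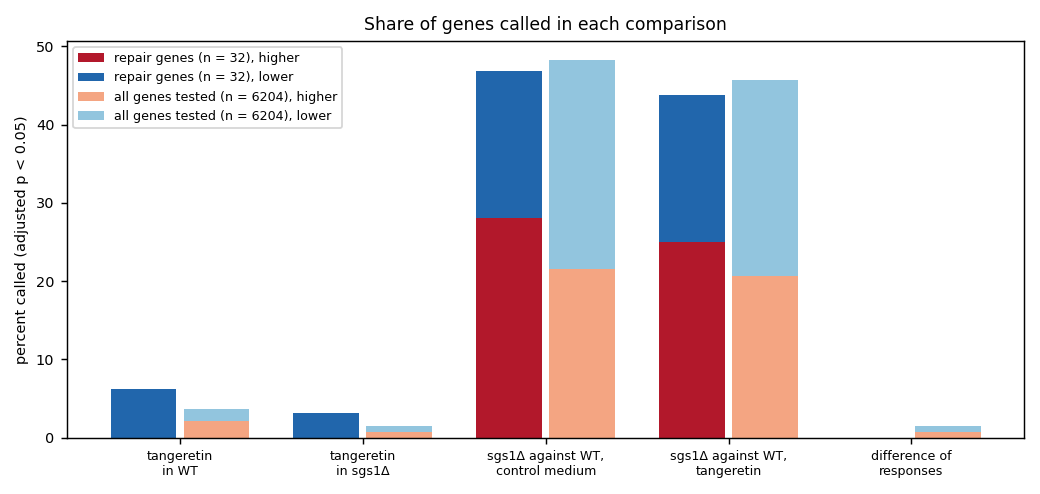
Share of genes called in each comparison, in percent, for the 32 repair genes tested (dark bars, left of each pair) and all 6204 genes tested (light bars), with higher calls in red and lower calls in blue. Both strain comparisons stand at 43.8% to 48.3% for either set, and the tangeretin comparisons at 6.25% or less.

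The arrays of the compared groups were fully separated more often than the adjusted p called. With tangeretin, 11 repair genes lay wholly above WT in sgs1Δ and 8 wholly below, against 26.2% and 31.3% of all genes (57.5% in either direction). In control medium, 11 lay above and 7 below, against 22.3% and 29.4% of all genes (51.7% in either direction). For tangeretin against control in sgs1Δ, 0 lay above and 8 below, where 9.28% and 15.9% of all genes did (25.1% in either direction), and in WT 0 lay above and 5 below, where 11.6% and 12.7% did (24.3% in either direction). Every repair gene that tangeretin separated was thus lower with it after normalisation, in totals not above the shares of all genes. In raw means only UNG1 in sgs1Δ and RAD16 and PHR1 in WT were lower with tangeretin. Of the 32, 8 were called in the same direction in both media, 4 higher (RAD16, RAD26, MGT1 and RAD30) and 4 lower (MMS2, UNG1, MSH6 and EXO1), which was 57.1% of those called with tangeretin and 53.3% of those called in control medium. Over all genes 2017 were, 71.1% and 67.3%. Of those called higher in both media, RAD26 passed the detection filter only through sgs1Δ, where it is brighter. MGT1 and RAD30 changed sign under an alternative setting, and RAD16 lies on chromosome II, where most genes were higher, as given below. The media used different arrays for both strains. In opposite directions 0 repair genes were called, against only 20 of all 6204 genes, so that count says nothing particular of repair.

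The widest difference was at MMS2, which encodes the ubiquitin-conjugating variant that pairs with Ubc13 to build the PCNA ubiquitin chain. Its normalised log2 intensity was 9.88, 9.92 and 9.73 in sgs1Δ with tangeretin, 10.13, 9.87 and 9.93 in sgs1Δ control, 11.88, 12.03 and 11.84 in WT with tangeretin, and 11.83, 11.89 and 11.87 in WT control. All 6 sgs1Δ arrays lay below all 6 WT arrays, by more than 1 log2 unit, and the groups with and without tangeretin overlapped in WT and in sgs1Δ. The log2 change of sgs1Δ against WT was -2.07 ± 0.09 (adjusted p = 8.16e-10) with tangeretin and -1.88 ± 0.09 (adjusted p = 2.86e-09) in control medium, each ± its SE with n = 3 arrays a group, as in the rest of the text. On the linear scale MMS2 stood at 0.238 of the WT level with tangeretin and 0.271 in control medium. Among all 6204 genes these were the tenth lowest and thirteenth lowest changes. MMS2 was also the only one of the 32 repair genes with a lower raw mean in sgs1Δ, 1273 ± 112 against 3402 ± 579 in WT with tangeretin and 1029 ± 165 against 2549 ± 509 in control medium (SD, n = 3), although 93.8% and 91.9% of all probes were brighter in sgs1Δ in the same comparisons. It was called under each of the 25 alternative settings in both media, with changes of -2.17 to -1.998 with tangeretin and -1.97 to -1.82 in control medium.

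The genes beside MMS2 on chromosome VII, looked up after its value was seen, differed less or the other way. YGL088W, next to it on one side, fell by 0.39 with tangeretin and 0.32 in control medium (adjusted p = 0.00872 and 0.0223). MAD1, a spindle checkpoint gene on the other side, had changes of -0.13 and 0.27 with adjusted p of 0.471 and 0.132. MF(ALPHA)2, an α-factor gene and one of the α-cell markers above, lies just beyond YGL088W and was higher in sgs1Δ by 3.64 and 2.45 (adjusted p = 1.27e-12 and 1.35e-10).

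The partners of MMS2 in chain formation differed little. UBC13, the catalytic partner, was called in control medium only, 0.24 ± 0.09 (adjusted p = 0.0425), against 0.13 ± 0.09 (adjusted p = 0.283) with tangeretin; it is given here for its partnership, after its values were seen. Its arrays were 12.45, 12.26 and 12.31 in sgs1Δ with tangeretin, 12.50, 12.40 and 12.50 in sgs1Δ control, 12.14, 12.12 and 12.39 in WT with tangeretin, and 12.22, 12.24 and 12.21 in WT control. In control medium the sgs1Δ arrays lay above the WT arrays, and with tangeretin they overlapped. The control call was lost under 10 of 25 alternatives. RAD5, the ubiquitin ligase and helicase of the same step, had changes of -0.21 and -0.05, uncalled. RAD6 and RAD18, which attach the first ubiquitin, had 0.16 and 0.17 with tangeretin and -0.18 and 0.08 in control medium, also uncalled, with group means of 11.44, 11.37, 11.28 and 11.54 for RAD6 and 8.75, 8.84, 8.57 and 8.76 for RAD18 (sgs1Δ with tangeretin, sgs1Δ control, WT with tangeretin, WT control). Of the 5 genes of this step MMS2 alone was called in both media, where 2017 of all 6204 genes were called in the same direction in both. With tangeretin 20% of the 5 were called and in control medium 40%, against 45.7% and 48.3% of all genes. These counts say nothing particular of this step.

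**Figure D2:**
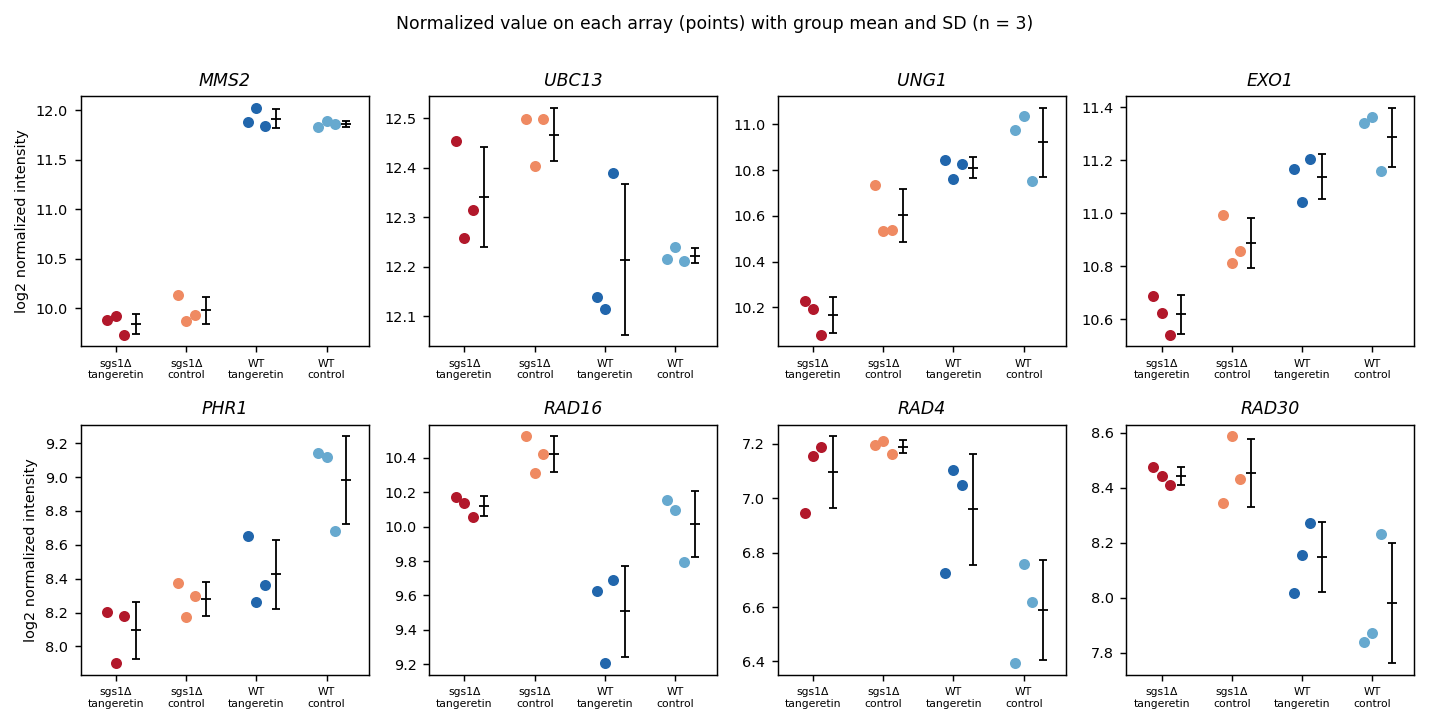
Normalised log2 intensity of 8 repair genes on each of the 12 arrays (points), with the group mean and SD (n = 3), from left to right sgs1Δ with tangeretin, sgs1Δ control, WT with tangeretin and WT control. The MMS2 arrays of sgs1Δ sit between 9.73 and 10.13 and those of WT between 11.83 and 12.03, while the vertical scale of every other gene spans less.

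The translesion polymerase genes that act when PCNA carries a single ubiquitin had values of one sign in control medium and of both signs with tangeretin. All 4 had positive sgs1Δ against WT values in control medium, 0.20 to 0.47, of which 2 were called, and with tangeretin RAD30 was called higher and REV1 lower. That was 50% of them in each medium, near the 48.3% of all genes in control medium and 45.7% with tangeretin. RAD30, which encodes polymerase eta, read 8.48, 8.44 and 8.41 in sgs1Δ with tangeretin, 8.34, 8.59 and 8.43 in sgs1Δ control, 8.02, 8.16 and 8.27 in WT with tangeretin, and 7.84, 7.87 and 8.23 in WT control. It was higher in sgs1Δ by 0.30 ± 0.11 (adjusted p = 0.0459) with tangeretin and 0.47 ± 0.11 (adjusted p = 0.00358) in control medium, with no overlap of arrays in either medium. The value of RAD30 with tangeretin was -0.08, uncalled, under the brightness covariate. REV3, the catalytic subunit of polymerase zeta, read 8.33, 8.35 and 8.35 in sgs1Δ with tangeretin, 8.44, 8.41 and 8.61 in sgs1Δ control, 8.26, 8.21 and 8.41 in WT with tangeretin, and 8.23, 8.11 and 8.23 in WT control. Only in control medium was it called, at 0.30 ± 0.09 (adjusted p = 0.0129), against 0.05 ± 0.09 (adjusted p = 0.667) with tangeretin, where the arrays overlapped. REV1, the deoxycytidyl transferase, read 11.16, 10.97 and 11.04 in sgs1Δ with tangeretin, 11.43, 11.27 and 11.48 in sgs1Δ control, 11.35, 11.19 and 11.66 in WT with tangeretin, and 11.19, 11.15 and 11.24 in WT control. With tangeretin REV1 was lower in sgs1Δ at -0.34 ± 0.11 (adjusted p = 0.0227), the arrays being apart, and in control medium it was 0.20 ± 0.11 (adjusted p = 0.163) with the sgs1Δ arrays all above the WT arrays. The change of REV1 with tangeretin was -0.34 in sgs1Δ and 0.21 in WT, neither called. Its difference in response, -0.54 ± 0.16 (adjusted p = 0.11), had the smallest adjusted p of the repair genes and was not called. REV7, the regulatory subunit of polymerase zeta, had uncalled strain differences of 0.25 and 0.22.

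Among the mismatch repair genes, those for the mismatch-binding partner MSH6 and the nuclease EXO1 were lower in sgs1Δ in both media. EXO1, a 5' to 3' exonuclease that excises the mismatched strand, read 10.69, 10.62 and 10.54 in sgs1Δ with tangeretin, 10.99, 10.81 and 10.86 in sgs1Δ control, 11.17, 11.04 and 11.20 in WT with tangeretin, and 11.34, 11.36 and 11.16 in WT control. All sgs1Δ arrays lay below all WT arrays, and the changes were -0.52 ± 0.09 (adjusted p = 0.000435) with tangeretin and -0.40 ± 0.09 (adjusted p = 0.00283) in control medium. MSH6, whose product recognises base mismatches and short loops, read 10.55, 10.31 and 10.43 in sgs1Δ with tangeretin, 10.72, 10.58 and 10.76 in sgs1Δ control, 10.86, 10.72 and 10.96 in WT with tangeretin, and 11.05, 11.08 and 10.96 in WT control, with no overlap within a medium. Its changes were -0.42 ± 0.10 (adjusted p = 0.00286) and -0.34 ± 0.10 (adjusted p = 0.00954). PMS1, which encodes a MutL-like partner, read 8.39, 8.60 and 8.38 in sgs1Δ with tangeretin, 8.51, 8.51 and 8.47 in sgs1Δ control, 8.63, 8.75 and 9.04 in WT with tangeretin, and 8.50, 8.78 and 8.75 in WT control. The PMS1 arrays overlapped in control medium, at -0.18 ± 0.12 (adjusted p = 0.211), and did not with tangeretin, where it was lower at -0.35 ± 0.12 (adjusted p = 0.0221). MSH3, whose product recognises larger loops, went the other way and was called in control medium only. Its arrays read 7.33, 6.90 and 7.24 in sgs1Δ with tangeretin, 7.33, 7.50 and 7.21 in sgs1Δ control, 7.08, 6.996 and 6.69 in WT with tangeretin, and 6.88, 6.53 and 6.84 in WT control, a change of 0.60 ± 0.14 (adjusted p = 0.00321) in control medium and 0.23 ± 0.14 (adjusted p = 0.192) with tangeretin, where the arrays overlapped. MSH3 was missed by the scanner on 1 WT control array. MLH3, another MutL-like gene, had uncalled changes of -0.12 and 0.07. Of these 5 genes, 0 were called higher and 3 lower with tangeretin, and 1 higher and 2 lower in control medium. Over all genes 20.7% were higher and 25% lower with tangeretin, and 21.5% and 26.8% in control medium.

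Of the base excision glycosylase genes, UNG1 was lower in sgs1Δ in both media and NTG1 higher in control medium. Of the 3 tested, 33.3% were called with tangeretin and 66.7% in control medium, against 45.7% and 48.3% of all genes. UNG1, the uracil glycosylase, read 10.23, 10.19 and 10.08 in sgs1Δ with tangeretin, 10.74, 10.53 and 10.54 in sgs1Δ control, 10.85, 10.76 and 10.83 in WT with tangeretin, and 10.98, 11.04 and 10.75 in WT control. Its arrays were lowest in sgs1Δ with tangeretin and did not overlap those of either sgs1Δ control or WT with tangeretin. UNG1 differed between sgs1Δ and WT by -0.64 ± 0.10 (adjusted p = 0.000118) with tangeretin and -0.32 ± 0.10 (adjusted p = 0.0147) in control medium. NTG1, a glycosylase for oxidised bases, read 8.12, 8.47 and 7.99 in sgs1Δ with tangeretin, 8.10, 7.88 and 8.10 in sgs1Δ control, 7.53, 7.95 and 7.93 in WT with tangeretin, and 7.17, 7.59 and 7.84 in WT control. In control medium the NTG1 arrays of sgs1Δ lay above those of WT, at 0.49 ± 0.17 (adjusted p = 0.0279), and with tangeretin the arrays were also apart but the change of 0.39 ± 0.17 (adjusted p = 0.0735) was not called. NTG2, its paralogue, was uncalled at 0.17 and 0.01. MAG1, the 3-methyladenine glycosylase, was detected on 0 of 12 arrays, with raw intensities of 14, 12 and 9 in sgs1Δ with tangeretin, 7, 13 and 5 in sgs1Δ control, 14, 8 and 4 in WT with tangeretin, and 3, 5 and 6 in WT control. OGG1, the 8-oxoguanine glycosylase, was detected on 2 arrays, both of WT with tangeretin, at raw intensities of 1 to 28 over all arrays. Neither MAG1 nor OGG1 was tested, and no change can be read from them.

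Abasic sites and blocked 3' ends are processed by APN1, APN2 and TPP1, of which APN2 alone was called, in 1 comparison. For sgs1Δ against WT, that was 33.3% of the 3 with tangeretin and 0% in control medium, against 45.7% and 48.3% of all genes. APN2, the minor abasic endonuclease, read 6.89, 6.95 and 6.82 in sgs1Δ with tangeretin, 6.64, 6.86 and 6.95 in sgs1Δ control, 6.33, 6.34 and 6.49 in WT with tangeretin, and 6.54, 6.76 and 6.42 in WT control. With tangeretin the sgs1Δ arrays lay above the WT arrays, at 0.50 ± 0.11 (adjusted p = 0.00172), and in control medium they overlapped, at 0.25 ± 0.11 (adjusted p = 0.0724). APN2 was dim in WT, with raw intensities of 26, 34 and 36 with tangeretin, and 2 of 3 WT control arrays detected it. APN1, the major abasic endonuclease, had uncalled changes of 0.15 and 0.02, and TPP1, a 3' phosphatase, had 0.18 and 0.07.

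Damage recognition in nucleotide excision repair rests on RAD4 with RAD23, on RAD14 and, for the untranscribed genome, on RAD7 with RAD16. RAD4 read 6.95, 7.15 and 7.19 in sgs1Δ with tangeretin, 7.20, 7.21 and 7.16 in sgs1Δ control, 6.73, 7.10 and 7.05 in WT with tangeretin, and 6.39, 6.76 and 6.62 in WT control. In control medium the sgs1Δ arrays lay above the WT arrays, a change of 0.60 ± 0.12 (adjusted p = 0.000989), and with tangeretin they overlapped, at 0.14 ± 0.12 (adjusted p = 0.36). RAD4 was near the detection limit in WT control, where 2 of 3 arrays detected it and raw intensities were 13, 31 and 38. RAD16, the ATPase of the Rad7-Rad16 complex, read 10.17, 10.14 and 10.06 in sgs1Δ with tangeretin, 10.53, 10.31 and 10.43 in sgs1Δ control, 9.63, 9.21 and 9.69 in WT with tangeretin, and 10.16, 10.10 and 9.80 in WT control. It was higher in sgs1Δ by 0.61 ± 0.13 (adjusted p = 0.00152) with tangeretin and 0.41 ± 0.13 (adjusted p = 0.0185) in control medium, with no overlap. RAD7 read 9.33, 9.13 and 9.20 in sgs1Δ with tangeretin, 9.14, 9.43 and 9.12 in sgs1Δ control, 9.02, 8.82 and 8.66 in WT with tangeretin, and 9.15, 9.10 and 8.89 in WT control. RAD7 was called with tangeretin alone, at 0.39 ± 0.12 (adjusted p = 0.0147) against 0.19 ± 0.12 (adjusted p = 0.205) in control medium, where the arrays overlapped. RAD23 and RAD14 had uncalled changes of -0.23 and 0.11 with tangeretin and -0.09 and 0.09 in control medium. In this recognition group 2 of 5 genes were called in each medium (40%, against 45.7% of all genes with tangeretin and 48.3% in control medium), all higher. RAD16, called in both, lies on chromosome II, where most genes were higher.

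**Figure D3:**
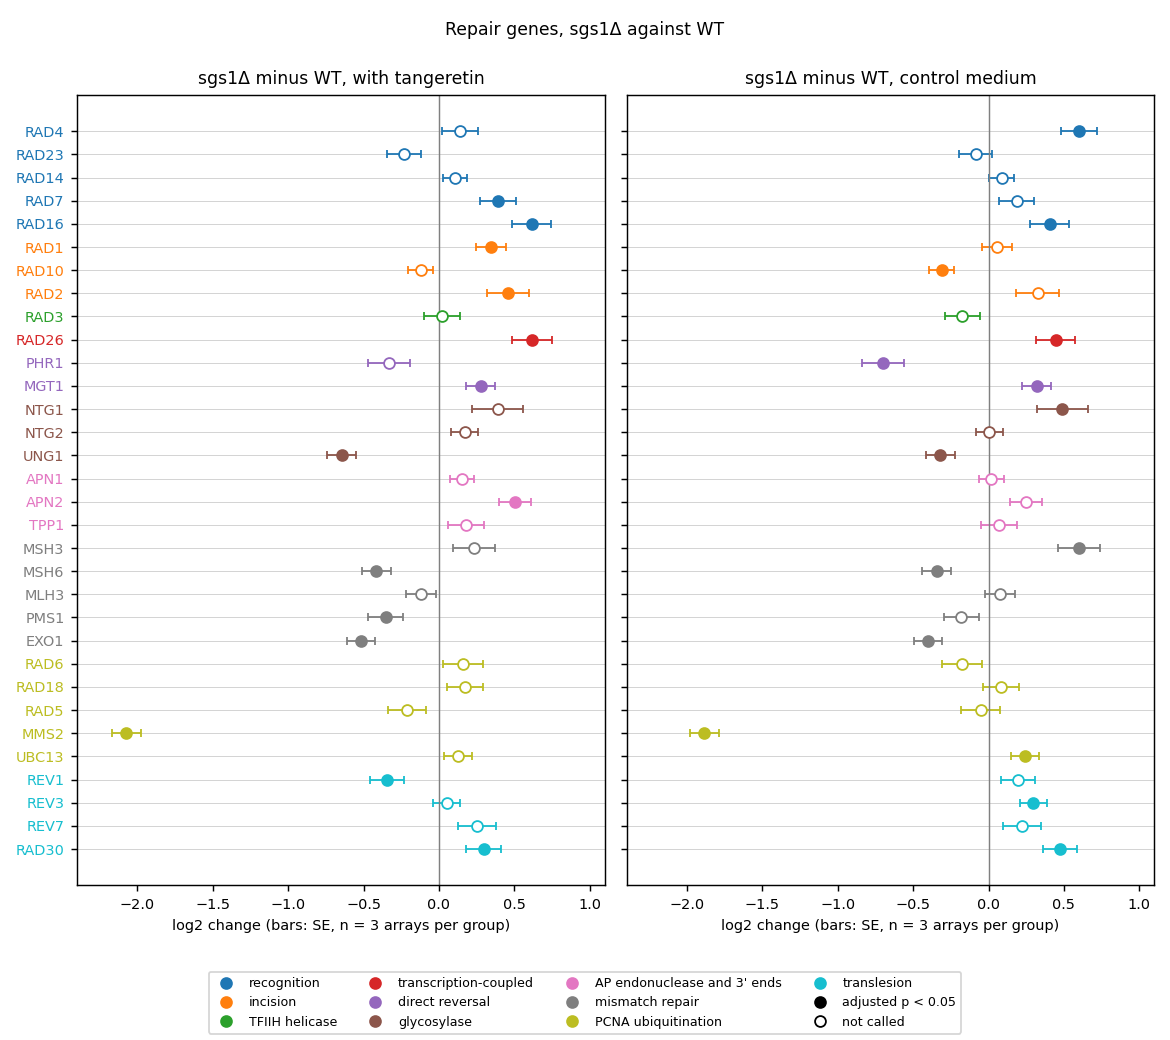
log2 change of sgs1Δ against WT for the 32 repair genes tested, with tangeretin (left) and in control medium (right), coloured by role, with bars of 1 SE (n = 3 arrays per group). Filled points are called at an adjusted p under 0.05. MMS2 stands alone near -2, and all other changes lie between -0.70 and 0.62.

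The incision nucleases were split. RAD1 and RAD10 encode the subunits of the nuclease that cuts 5' of a lesion, and RAD2 the nuclease that cuts 3' of it. RAD1 read 10.75, 10.54 and 10.66 in sgs1Δ with tangeretin, 10.39, 10.68 and 10.41 in sgs1Δ control, 10.38, 10.25 and 10.28 in WT with tangeretin, and 10.55, 10.41 and 10.34 in WT control. It was higher in sgs1Δ with tangeretin, at 0.35 ± 0.10 (adjusted p = 0.0121), and the arrays overlapped in control medium, at 0.06 ± 0.10 (adjusted p = 0.662). Its partner RAD10 read 8.38, 8.32 and 8.40 in sgs1Δ with tangeretin, 8.45, 8.43 and 8.52 in sgs1Δ control, 8.50, 8.47 and 8.49 in WT with tangeretin, and 8.91, 8.74 and 8.68 in WT control. The RAD10 arrays of sgs1Δ lay below those of WT in both media, called in control medium at -0.31 ± 0.08 (adjusted p = 0.00736) and uncalled with tangeretin at -0.12 ± 0.08 (adjusted p = 0.256). RAD2 read 7.81, 7.55 and 7.32 in sgs1Δ with tangeretin, 7.18, 7.31 and 7.41 in sgs1Δ control, 6.95, 7.27 and 7.08 in WT with tangeretin, and 6.94, 6.76 and 7.21 in WT control. It differed by 0.46 ± 0.14 (adjusted p = 0.0158) with tangeretin and 0.33 ± 0.14 (adjusted p = 0.0687) in control medium, where 1 WT array lay within the sgs1Δ range. RAD3, the TFIIH helicase that opens the helix, was uncalled at 0.02 and -0.17. RAD26, which couples repair to transcription, read 6.50, 6.96 and 6.58 in sgs1Δ with tangeretin, 6.28, 6.44 and 6.62 in sgs1Δ control, 5.92, 6.22 and 6.06 in WT with tangeretin, and 5.87, 6.10 and 6.03 in WT control. It was detected on 3, 2, 1 and 0 arrays of those groups in turn. With 1 WT array and 5 sgs1Δ arrays detecting it, RAD26 passed the detection filter only through sgs1Δ, where it is brighter. With tangeretin its measured difference was 0.62 ± 0.13 (adjusted p = 0.00165), which rests on 2 undetected WT arrays. In control medium the measured difference was 0.44 ± 0.13 (1.36-fold, adjusted p = 0.0127). No WT control array detected RAD26, so the size of that difference is uncertain. With 75th percentile scaling that control difference was -0.04 and not called. Without RAD26, 13 of 31 repair genes were called with tangeretin (41.9%) and 14 of 31 in control medium (45.2%).

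Direct reversal was represented by PHR1, the light-dependent photolyase, and MGT1, the O6-alkylguanine methyltransferase. PHR1 read 8.21, 7.90 and 8.18 in sgs1Δ with tangeretin, 8.37, 8.17 and 8.30 in sgs1Δ control, 8.65, 8.26 and 8.36 in WT with tangeretin, and 9.14, 9.12 and 8.68 in WT control. WT control was the highest group, with no overlap with WT with tangeretin or sgs1Δ control. PHR1 was lower in sgs1Δ at -0.70 ± 0.14 (adjusted p = 0.00101) in control medium, and with tangeretin the change of -0.33 ± 0.14 (adjusted p = 0.0649) was not called although the arrays were apart. MGT1 read 6.73, 6.90 and 6.78 in sgs1Δ with tangeretin, 6.62, 6.79 and 6.64 in sgs1Δ control, 6.48, 6.55 and 6.56 in WT with tangeretin, and 6.27, 6.30 and 6.53 in WT control. The level was near the detection limit, and 1 of 3 WT control arrays detected it. Its changes were 0.28 ± 0.09 (adjusted p = 0.0284) with tangeretin and 0.32 ± 0.09 (adjusted p = 0.0129) in control medium, with no overlap. They turned to -0.03 in control medium with 75th percentile scaling and to -0.01 with tangeretin under the brightness covariate, both uncalled.

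Of the repair genes called lower in sgs1Δ, MMS2 alone was also lower in raw intensity. The raw means of EXO1 were 2183 ± 113 in sgs1Δ with tangeretin and 1901 ± 98.4 in WT with tangeretin, and 1961 ± 318 in sgs1Δ control and 1643 ± 190 in WT control (SD, n = 3). Those of UNG1 were 1583 ± 100.4 and 1499 ± 114 with tangeretin, and 1604 ± 281 and 1218 ± 119 in control medium, in sgs1Δ and WT in that order. The lower values of these genes are thus relative to the other genes of the same arrays. With array brightness as a covariate, 5 of the 32 calls made in all comparisons remained. These were MMS2 in both media (-2.04 and -1.85), RAD16 in both (1.04 and 0.84) and APN2 with tangeretin (0.62). Scaling to the 75th percentile kept 20 of the 32. Over all genes the brightness fit called 1099 with tangeretin and 787 in control medium.

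RAD16 and APN2 lie on chromosome II, where most genes were higher in sgs1Δ. On the right arm, the 292 genes other than RAD16 had a median change of 0.69 with tangeretin and 0.73 in control medium, and 244 and 246 of them were called higher. RAD16 was below the arm's median in both media, and 44.2% and 23.6% of the other right-arm genes lay below it. On the left arm the 104 genes other than APN2 had medians of 0.66 and 0.77, with 76 and 83 called higher. APN2, at 0.50 and 0.25, also lay below its arm's median, with 39.4% and 18.3% of the arm below it. With these genes set aside, 12 of 30 repair genes were called with tangeretin (40%, 6 higher and 6 lower), against 43.2% of the 5806 genes off chromosome II (960 higher and 1548 lower). In control medium 14 of 30 were called (46.7%, 8 higher and 6 lower), against 45.8% (1004 higher and 1655 lower).

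**Figure D4:**
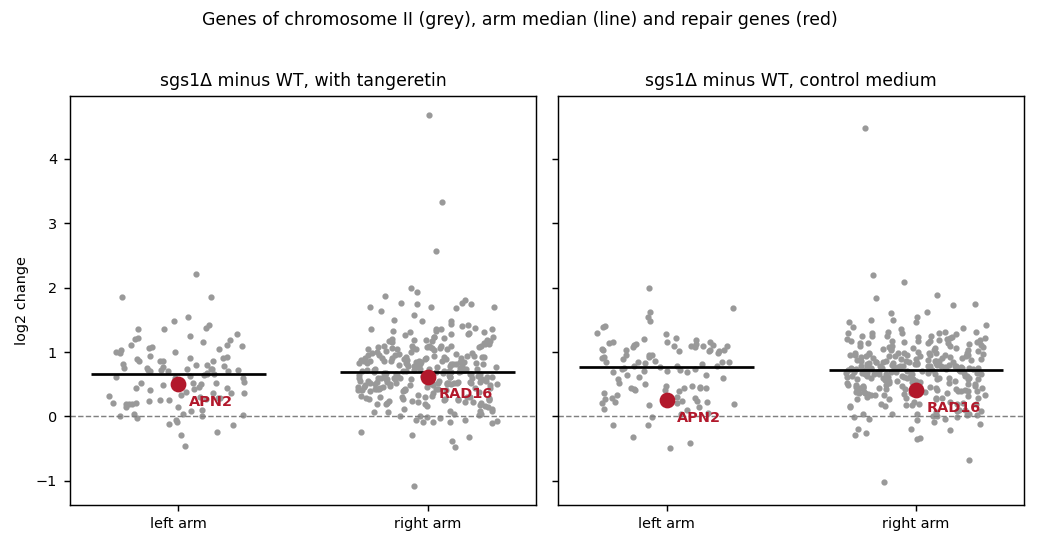
log2 change of sgs1Δ against WT for genes of the left and right arms of chromosome II (grey points, spread sideways for visibility), with tangeretin (left) and in control medium (right). The black lines are arm medians of 0.66 to 0.77, and APN2 and RAD16 (red) lie below the line of their arm in both panels.

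Of the 9 members in the dimmest 25% of all genes by mean level, 5 were called higher and 0 lower with tangeretin, and 7 higher and 0 lower in control medium. Without RAD26, which passed the detection filter only through sgs1Δ, the counts were 4 and 0, and 6 and 0, of 8. RAD26 and MGT1 turned negative in control medium with 75th percentile scaling. Among all 1551 dim genes, 301 were higher and 271 lower with tangeretin and 331 higher and 412 lower in control medium. Of the 23 brighter members, 3 were higher and 6 lower with tangeretin, and 2 higher and 6 lower in control medium. The offset of 50 added before the logarithm understates changes of dim genes. With array brightness as a covariate, APN2 with tangeretin was the only call on a dim member that remained.

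Tangeretin against control changed UNG1 in sgs1Δ and RAD16 and PHR1 in WT, each downwards. UNG1 fell by 0.43 ± 0.10 in sgs1Δ (adjusted p = 0.0443), where all 3 tangeretin arrays lay below the control arrays, and its change in WT was -0.11 ± 0.10 (adjusted p = 0.457). RAD16 fell by 0.51 ± 0.13 in WT (adjusted p = 0.0466), again without overlap, and had -0.30 ± 0.13 (adjusted p = 0.2) in sgs1Δ. PHR1 fell by 0.56 ± 0.14 in WT (adjusted p = 0.0434), with its arrays just apart, and had -0.19 ± 0.14 (adjusted p = 0.459) in sgs1Δ. The raw means, from the same arrays, were also lower with tangeretin, but within their spread, and the raw arrays of the compared groups overlapped. UNG1 was 1583 ± 100.4 with tangeretin and 1604 ± 281 in control in sgs1Δ, RAD16 569 ± 56.8 and 607 ± 48.0 in WT, and PHR1 243 ± 20.2 and 253 ± 15.95 in WT (SD, n = 3). These were the only 3 raw means of tested repair genes that were lower with tangeretin in those strains, while 98.3% of all probes in sgs1Δ and 96.8% in WT were brighter with it. In WT RAD16 did not move with its chromosome arm, whose median was -0.01 and of which 0.342% of genes lay below it. The 3 calls were near the threshold. With 1 array left out in turn, UNG1 was called in 3 of 12 fits, RAD16 in 3 and PHR1 in 4. Scaling to the 75th percentile, an offset of 16, the authors' values, or a fit of the compared groups alone each ended all 3, and so did brightness as a covariate, with changes of -0.29 for UNG1 and -0.25 for both RAD16 and PHR1.

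**Figure D5:**
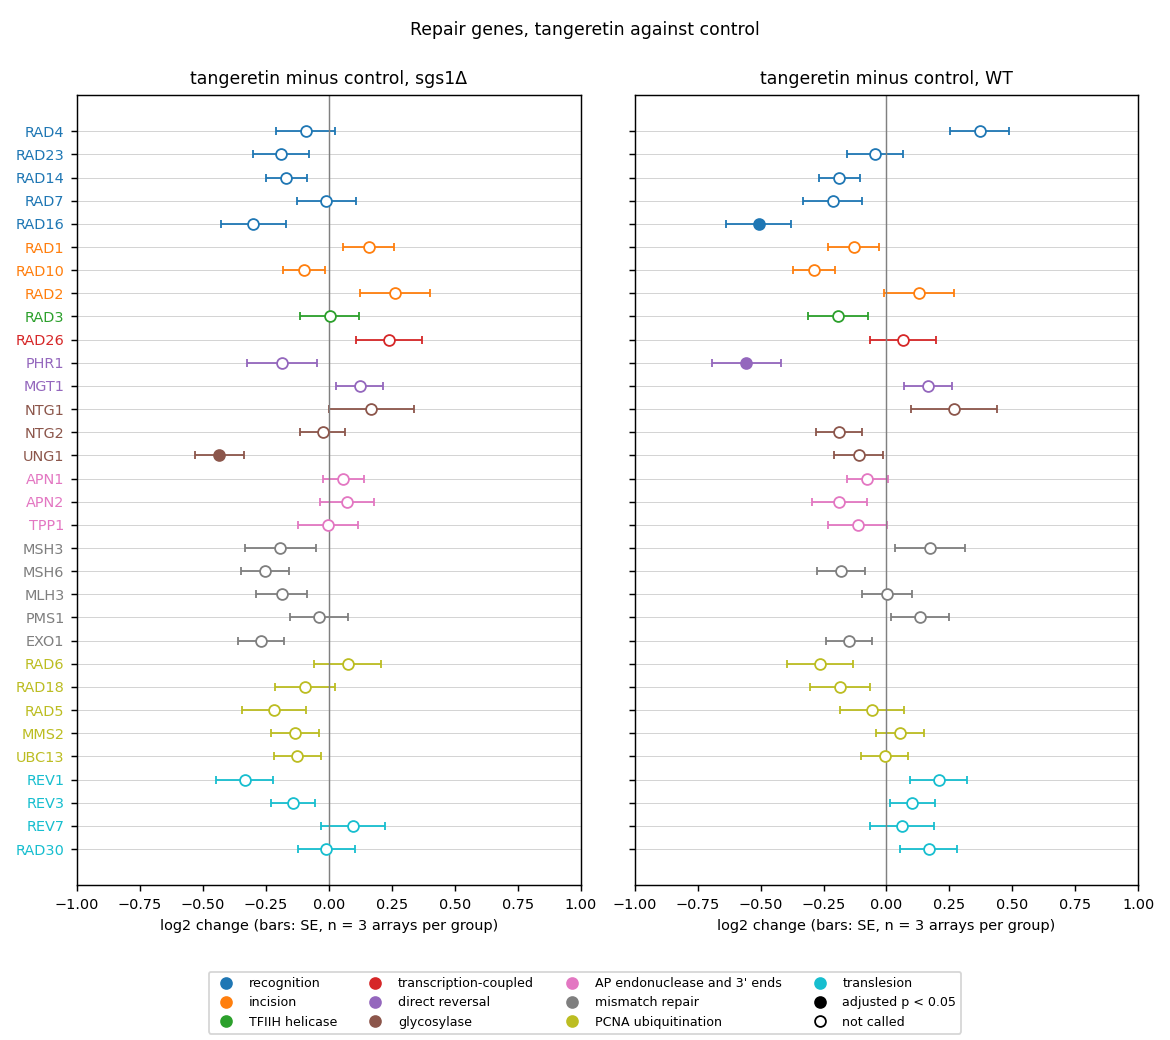
log2 change of tangeretin against control for the 32 repair genes tested, in sgs1Δ (left) and WT (right), coloured by role, with bars of 1 SE (n = 3 arrays per group). UNG1 in sgs1Δ and RAD16 and PHR1 in WT are the filled, called points, and the other changes lie between -0.34 and 0.37.

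The other repair genes stayed uncalled in both tangeretin comparisons. The highest value was that of RAD4 in WT, 0.37 ± 0.12 (adjusted p = 0.0829), and in sgs1Δ it was -0.09 ± 0.12 (adjusted p = 0.689). The translesion genes had positive values in WT, 0.06 to 0.21, and 3 of the 4 had negative values in sgs1Δ. In neither strain was any gene of this group called. The difference between the responses of sgs1Δ and WT (interaction) was called for 0 of 32 repair genes in limma, against 1.5% of all genes, 0.709% higher and 0.79% lower. At an unadjusted p under 0.05 it held 3 repair genes (9.38%) against 16.4% of all genes, and it was 0 under every alternative run. The fall of UNG1 in sgs1Δ and those of RAD16 and PHR1 in WT were thus not shown to differ between strains, at interaction values of -0.32 ± 0.14 (adjusted p = 0.258), 0.21 ± 0.18 (adjusted p = 0.601) and 0.37 ± 0.20 (adjusted p = 0.363).

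The other genes of these pathways, 34 tested of 35 listed, were also called in both directions. With tangeretin 7 were higher and 6 lower in sgs1Δ than in WT, and in control medium 9 were higher and 9 lower. That was 38.2% and 52.9% of the 34 called, against 45.7% and 48.3% of all genes, and the counts by group below have those same shares as background. Of the 9 genes for the core and kinase of TFIIH, the helix-opening complex, 1 was higher and 1 lower with tangeretin and 3 were higher and 1 lower in control medium. The 7 accessory genes of nucleotide excision repair had 1 higher and 2 lower, and 2 higher and 3 lower. The 3 tested genes of base excision and end processing had 1 higher and 0 lower, and 1 higher and 1 lower. The higher one was TDP1 in both media. The 6 other genes named MSH or MLH with a digit had 2 higher and 1 lower, and 1 higher and 2 lower. They were listed by name and not by role, so a part of each in mismatch repair is not assured. MSH5 was the lower one with tangeretin (-1.17) and was also lower in control medium (-1.26). The 9 other damage tolerance genes, among them the PCNA gene POL30, had 2 higher and 2 lower in each medium. TDP1 (0.81 with tangeretin, 1.05 in control medium) and POL30 (0.34 and 0.48) lie on the right arm of chromosome II, with arm medians of 0.69 and 0.73. Tangeretin against control called 1 of the 34 in sgs1Δ, lower, and 2 in WT, 1 higher and 1 lower. That was 2.94% and 5.88% of them, against 1.45% and 3.71% of all genes.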

How the data were processed

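The members were taken from the raw table by name, and the members, gene lists and tests were chosen with earlier results of these data known. Raw intensity per spot is deposited, per the file headers, with the background already subtracted, since the median of the 2158 empty spots was 0 to 1 on each array. A deposited scanner flag (unit other) of 0 was read as detected. The deposited log2 values were normalised by the authors by a method not given in the sources used here, with a median of 10 on every array, and served as an alternative. Intensities under 0 were set to 0, 50 was added, control spots were left out, and arrays were quantile normalised in limma 3.58.1 (R 4.3.3) and put on a log2 scale. Of 6958 probes, 301 detected on fewer than 3 arrays and 266 with names that the files do not explain were not tested. Leaving out the unexplained names was decided after the files were seen. The brightest probe stood for a gene, which left 6204 genes. Every member had 1 probe. The 4 groups of 3 arrays were fitted together without covariates (lmFit, eBayes, 8 residual degrees of freedom). Tests were two-sided, with Benjamini-Hochberg adjustment over all genes. The 5 comparisons were sgs1Δ against WT in each medium, tangeretin against control in each strain, and the difference between the responses. The fit was tested on simulated data. Values on 12 arrays were printed for the 20 called members with the smallest adjusted p, which include PHR1, RAD16 and APN2, and for MAG1. Those of UBC13, the 21st called member, were added after its values were seen. A RefSeq table of the S288C genome gave names and neighbours for 5927 probes. Replicate numbers are not known to pair arrays. Deviations from the group means correlated at -0.42 to 0.51 (median 0.07) between arrays of the same number and -0.64 to 0.51 (median -0.04) between others. These ranges overlap and cannot exclude a pairing. The number of arrays limits the precision. Alternatives were other offsets, scalings, filters and probe rules, the authors' values, fewer groups, a replicate block, moderated variance with trend, brightness as a covariate, removal of chromosome II and leaving out each array.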

Additional observations from a re-analysis of the deposited data

How the results depend on the processing

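Of the 32 calls on repair genes, 3 held under every alternative in which they had a value. These were MMS2 in both strain comparisons and RAD16 in sgs1Δ against WT with tangeretin. RAD16 lies on chromosome II and so had no value in the fit without that chromosome, which could not end its call. With 1 array left out in turn, 15 held in all 12 fits. The count of 2 called by tangeretin in WT was 0 with an offset of 16, 75th percentile scaling, the authors' values, only the compared groups or brightness as a covariate, 1 without the detection filter, and 0 to 5 with 1 array left out (5 without WT control 3, where 1677 genes were called in all, against 230). It was 0 without WT tangeretin 2 or 3, WT control 1 or 2, sgs1Δ tangeretin 1 or 3, or sgs1Δ control 1 or 3, 1 without sgs1Δ tangeretin 2 and 1 without chromosome II, which holds RAD16. The count of 1 in sgs1Δ was 0 under the same 5 settings and 0 to 1 with 1 array left out. The count of 14 of 32 with tangeretin in sgs1Δ against WT was 3 of 32 with brightness as a covariate, where 17.7% of all genes were called. Without the dimmest 25% of genes it was 9 of the 23 members left, where 49.9% of the genes left were called. It was 9 to 16 with 1 array left out (9 without sgs1Δ tangeretin 1). The count of 15 of 32 in control medium was 2 of 32 with brightness, where 12.7% of all genes were called. Without the dimmest 25% it was 8 of 23, where 48.9% of the genes left were called. It was 10 to 15 with 1 array left out (10 without WT control 1 or sgs1Δ control 3). The interaction was 0 throughout, 0 to 0 with 1 array left out. The direction of 4 changes reversed, with the cause not tested: in control medium with 75th percentile scaling, RAD26 was -0.0383 and MGT1 -0.0309, and with tangeretin under the brightness covariate, MGT1 was -0.0125 and RAD30 -0.0757. The split of higher and lower calls with 75th percentile scaling was 11 and 5 with tangeretin and 9 and 4 in control medium, and with brightness 2 and 1, and 1 and 1.

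Offset 16 kept 29 of the 32 calls, offset 100 31, 75th percentile scaling 20, cyclic loess 30, the authors' values 28, no detection filter 31, only the compared groups 28 and eBayes with trend 31. The mean of the probes kept all 32. Without the dimmest 25% all 20 that could be computed were kept, and without chromosome II 27 of 28. With replicate number as a replicate block all 32 calls held and the counts were 15, 15, 1, 3 and 0 (sgs1Δ against WT with tangeretin, in control medium, tangeretin in sgs1Δ, in WT, interaction). The block called 480 genes in all for tangeretin in WT. Leaving out sgs1Δ control 3 ended 9 of the 32 calls, leaving out WT control 1 or 2 or sgs1Δ tangeretin 1 or 3 ended 8 each, sgs1Δ control 1 ended 6, WT tangeretin 1, 2 or 3 or sgs1Δ tangeretin 2 ended 5 each, WT control 3 ended 2 and sgs1Δ control 2 ended 1. Over all genes the calls with 1 array left out ranged from 2329 to 3065 (sgs1Δ against WT with tangeretin), 2272 to 3300 (in control medium), 17 to 774 (tangeretin in sgs1Δ), 18 to 1677 (tangeretin in WT) and 14 to 364 (interaction). Brightness overlapped little between strains, which limits what that covariate can separate. RAD26, MGT1, MAG1 and OGG1 were limited by signal near the background, and so were RAD4, APN2 and MSH3 in WT control.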
